A study of Mus musculus with 12 samples.

Results

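Cold-inducible and cold-shock-domain RNA-binding proteins are a group of 6 genes in mouse ventricle: Cirbp, Rbm3, Ybx1, Ybx3, Csdc2 and Carhsp1. They were taken from the table by symbol, 1 row each, out of 54949 rows, and all 6 were among the 15114 genes that passed the filter on low counts. The group was chosen with measured values in view, namely its counts in these same 12 libraries, so their difference between the groups is given as a description, and where a member is said to pass or be called in the fit over all genes, that is no test of it. The series profiled bulk RNA of ventricles, atria removed, in a mouse model of HFpEF, heart failure whose ejection fraction is preserved while filling is impaired. All libraries came from wild-type male C57BL/6N animals that were 8 weeks old when the 5-week model began. One group received high-fat chow plus 0.5 g/L of L-NAME, a nitric oxide synthase blocker, in the water, and the other received ordinary chow and water.

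The labels do not settle which libraries are which. Every sample whose title and treatment name the model has a library name of con-1 to con-6, and every sample titled as control has one of HF-1 to HF-6. Libraries are called con-named and HF-named here, 6 of each, every difference is HF-named relative to con-named, and treated and untreated cannot be told apart from the labels. The submitters' design text gives 5 samples per group for this assay, and nothing in the labels ties a library to its own mouse, so errors and p-values describe the spread between these libraries, which may be technical.

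CIRBP and RBM3 are small proteins with 1 RNA recognition motif and a glycine-rich tail. Both are induced by mild cooling, bind messenger RNA, and are known to influence poly(A) site choice, translation and the amplitude of the circadian clock. The other members carry a cold-shock domain, a nucleic acid fold that is also found in bacterial cold-shock proteins. YBX1 packages messenger RNA into ribonucleoprotein particles, YBX3 is its close relative in heart and skeletal muscle, CSDC2 (also called PIPPin) binds histone transcripts in brain, and CARHSP1 is a calcineurin substrate that binds transcripts such as that of Tnf.

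The members form 3 pairs by coding sequence, and 1 stretch of 90 coding bases is shown per pair because it holds the longest run of letters the partners share. These bases are from GENCODE M21 transcripts on mm10, 5′ to 3′ on the coding strand, with the longest shared run in capitals. In Cirbp and Rbm3, 61 of the 90 positions are identical (coding positions 157 to 246 in both).
Cirbp: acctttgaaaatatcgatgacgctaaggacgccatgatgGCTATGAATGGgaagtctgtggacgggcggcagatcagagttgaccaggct
Rbm3: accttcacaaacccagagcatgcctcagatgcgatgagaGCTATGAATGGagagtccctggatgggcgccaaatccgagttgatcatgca
In Ybx1 (coding positions 299 to 388) and Ybx3 (377 to 466), 78 of the 90 are identical.
Ybx1: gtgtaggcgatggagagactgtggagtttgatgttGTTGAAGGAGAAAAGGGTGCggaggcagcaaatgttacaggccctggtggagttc
Ybx3: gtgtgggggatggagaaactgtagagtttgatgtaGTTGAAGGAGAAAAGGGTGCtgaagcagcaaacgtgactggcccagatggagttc
In Csdc2 (coding positions 207 to 296) and Carhsp1 (189 to 278), 64 of the 90 are identical.
Csdc2: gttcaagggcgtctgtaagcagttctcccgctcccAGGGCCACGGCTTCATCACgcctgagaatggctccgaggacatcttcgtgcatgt
Carhsp1: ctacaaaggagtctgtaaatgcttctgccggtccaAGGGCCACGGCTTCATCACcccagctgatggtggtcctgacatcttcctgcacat
The best local alignment of the coding sequences covered 513 columns at 65.7% identity for Cirbp and Rbm3, 295 columns at 78.6% for Ybx1 and Ybx3, and 319 columns at 76.2% for Csdc2 and Carhsp1. The longest run of identical bases was 11 in the first pair, 20 in the second and 19 in the last. Members of different pairs shared runs of up to 12 bases (Cirbp with Ybx3, Rbm3 with Carhsp1), with alignments of at most 33 columns. The pairing of Cirbp with Rbm3 thus rests on the alignment and not on the run of 11. No stretch of 50 exon bases was shared between members.

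Copies elsewhere in the genome share more. Of the 50-base stretches in Ybx1 exons, 15.4% also occur in another annotated gene, mainly the pseudogenes Gm11560 (215 to 371 counts per library) and Ybx1-ps2 (21 to 36 counts), against 7701 to 11452 counts for Ybx1 itself. In Rbm3 the share was 9.71%, mainly with Rbm3-ps (6 to 23 counts), Gm10156 (7 to 25 counts), Gm48583 (22 to 75 counts), Gm13624 (0 counts) and, on the opposite strand, Phospho2 (1.75% of the Rbm3 stretches, 299 to 489 counts), against 507 to 1098 counts for Rbm3. In Carhsp1 it was 8.83%, all with Gm9791 (6 to 38 counts). It was 0.412% in Csdc2 and 0% in Cirbp and Ybx3. How the submitters' counting treated reads that fit several places is not given in the sources used here, so the levels of Ybx1, Rbm3 and Carhsp1 carry that uncertainty. Rbm3 also overlaps the antisense gene Rbm3os over 94 exon bases (2.001% of its exon bases), and Rbm3os had 0 to 11 counts per library.

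Cirbp (ENSMUSG00000045193) lies at chr10:80165985-80172786 on the plus strand of mm10. Its counts pool 7 annotated transcripts, of which 2 are protein-coding, 4 retain an intron and 1 is a target of nonsense-mediated decay, a quality-control pathway. In the con-named libraries it had a lowest, median and highest level of 64.8, 70.2 and 74.2 CPM (read counts scaled to library size and composition). In the HF-named libraries the same values were 50.8, 54.5 and 58.3 CPM. The groups do not overlap, and the highest HF-named library is below the lowest con-named one. Means ± SD, here and below over n = 6 per group, were 70.3 ± 3.58 and 54.2 ± 2.66 CPM. The log2 fold change was -0.37 (SE 0.0479), or 0.773 times the con-named level. In bulk tissue, fewer cells that carry a transcript and less of it per cell cannot be told apart.

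Rbm3 (ENSMUSG00000031167) lies at chrX:8138975-8145880 on the minus strand and has 11 annotated transcripts, of which 6 are protein-coding. Its lowest, median and highest levels were 45.7, 52.1 and 57.8 CPM in the con-named libraries. In the HF-named libraries they were 33.7, 37.2 and 43.7 CPM. Again no HF-named library reaches the con-named range, although the gap is narrow, as HF-named replicate 3 stands at the top of its group and con-named replicate 6 at the bottom of its own. Means were 52.1 ± 4.01 and 37.6 ± 3.37 CPM. The log2 fold change was -0.47 (SE 0.0651), or 0.721 times the con-named level.

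**Figure D1:**
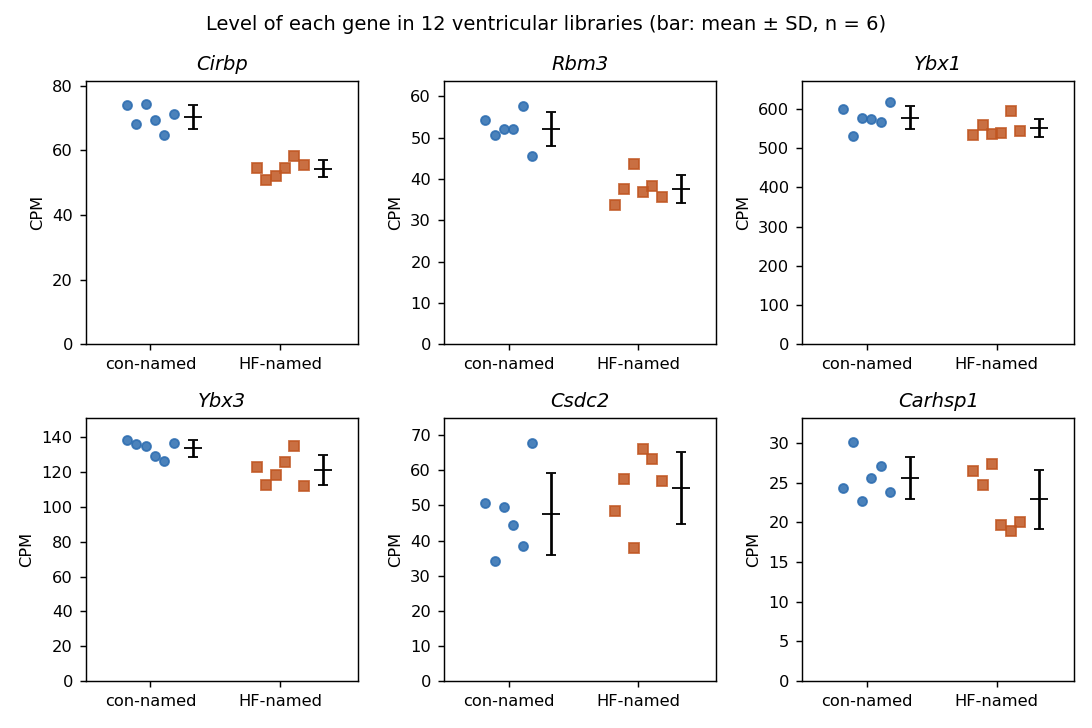
Level of each gene in CPM (y axis from 0, a separate scale per gene) in the 6 con-named (circles) and 6 HF-named (squares) libraries, with mean ± SD as black bars. Cirbp and Rbm3 separate the groups, with HF-named medians of 54.5 and 37.2 CPM against 70.2 and 52.1, while the other 4 genes overlap.

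Ybx1 (ENSMUSG00000028639, chr4:119277981-119294604, minus strand) had the highest level of the members, also per length. Its lowest, median and highest levels were 532, 576 and 617 CPM for con-named and 534, 540.3 and 594 CPM for HF-named libraries. The groups overlap almost completely, with no HF-named library below the con-named range. The log2 fold change was -0.07 (SE 0.0492) between means of 578 ± 28.9 and 551 ± 23.2 CPM.

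Ybx3 (ENSMUSG00000030189, chr6:131364855-131388476, minus strand) ran from 126 to 139 CPM in the con-named libraries, with a median of 136. In the HF-named libraries it ran from 112 to 135 CPM, with a median of 121. Of the HF-named libraries, 5 of 6 were below every con-named one, and replicate 5, at 135 CPM, lay within the con-named range. The log2 fold change was -0.14 (SE 0.0511), with means of 134 ± 4.80 and 121 ± 8.81 CPM.

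Csdc2 (ENSMUSG00000042109, chr15:81936759-81950941, plus strand) was the member that varied most from library to library. Its lowest, median and highest levels were 34.2, 47.0 and 67.8 CPM for con-named and 37.9, 57.2 and 66.0 CPM for HF-named libraries. The HF-named values fall entirely inside the con-named range. The means of 47.5 ± 11.8 and 55.0 ± 10.3 CPM gave a log2 fold change of 0.22 (SE 0.148), the only positive estimate among the 6 members.

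Carhsp1 (ENSMUSG00000008393, chr16:8658580-8672155, minus strand) has 1 annotated transcript. It ran from 22.8 to 30.2 CPM around a median of 24.97 in the con-named libraries, and from 18.9 to 27.4 CPM around 22.4 in the HF-named. HF-named replicates 4, 5 and 6, at 19.7, 18.9 and 20.1 CPM, were below every con-named library, and replicates 1, 2 and 3, at 26.5, 24.7 and 27.4 CPM, lay within the con-named range. The log2 fold change was -0.17 (SE 0.0984), with means of 25.6 ± 2.69 and 22.9 ± 3.76 CPM.

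Across all genes, 13.3% passed an adjusted p of 0.05 (edgeR quasi-likelihood test, Benjamini-Hochberg adjustment), 5.05% as lower and 8.28% as higher, and 1.95% had every HF-named value beneath every con-named value. Among the members, 2 of 6 passed, Cirbp and Rbm3, both lower, and the same 2 were free of overlap. Because the members were chosen from this contrast, nothing is read from their count against these shares. Over all genes tested the log2 fold changes had a median of -0.01. Within the RNA recognition motif pair both estimates were below that median, at -0.37 and -0.47, and within the cold-shock-domain members they ran from -0.17 to 0.22.

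How the libraries are scaled matters for Ybx1 and Ybx3. With library totals in place of the TMM scaling, the median of all genes moved from -0.01 to -0.13, and 15.8% of the genes called were higher, in place of 62.1%. On that scale the log2 fold changes were -0.49 for Cirbp, -0.59 for Rbm3, -0.18 for Ybx1 and -0.26 for Ybx3. All 4 were among the 3065 of 15114 genes called there, 483 as higher and 2582 as lower. The main fit called 764 as lower, so nothing is read from the added calls of Ybx1 and Ybx3. In the deposited FPKM (counts scaled by exon length and sequencing depth), all 6 HF-named libraries were below every con-named one for Ybx1 and Ybx3. The ranges were 199 to 215 against 228 to 247 for Ybx1 and 34.8 to 39.8 against 43.1 to 48.0 for Ybx3. The composition-scaled values did not show this arrangement. The share of all genes so placed in FPKM is not given here. The arrangement is thus not shown to be particular to Ybx1 and Ybx3. The authors' deposited table gives log2 fold changes of -0.37 for Cirbp, -0.47 for Rbm3, -0.07 for Ybx1, -0.14 for Ybx3, 0.21 for Csdc2 and -0.17 for Carhsp1, from means named HF and control that equal those of the HF-named and con-named libraries.

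**Figure D2:**
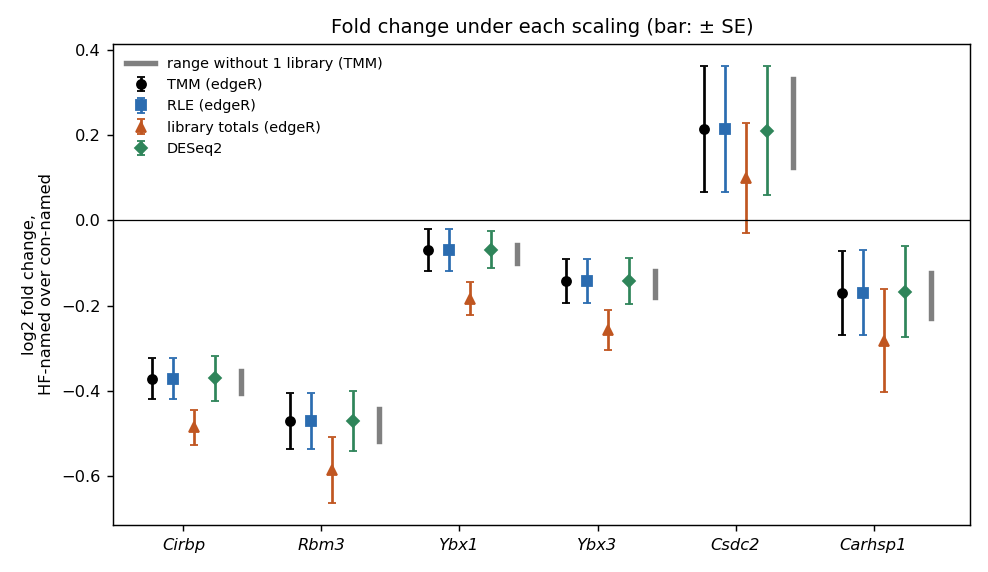
Log2 fold change of each gene (y axis, HF-named over con-named) with TMM, RLE or library-total scaling in edgeR and in DESeq2 (points, bars ± SE), and the range when each library is left out in turn (grey). Library totals move every gene down, Ybx1 from -0.07 to -0.18, and Cirbp and Rbm3 stay below 0 in all fits drawn.

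Ratios between members of the same library do not depend on the scaling. Cirbp counts over Ybx1 counts ran from 0.114 to 0.129 for con-named and from 0.0910 to 0.102 for HF-named libraries, with no overlap. Cirbp was chosen from this contrast, and the share of gene ratios so placed is not given here, so the separation is a description. The ratio of Rbm3 to Ybx1 ran from 0.0740 to 0.102 and from 0.0631 to 0.0814, so the ranges overlap slightly. By contrast the ratio of Ybx3 to Ybx1 had medians of 0.228 and 0.224, and that of Cirbp to Rbm3 had medians of 1.35 (1.12 to 1.56) and 1.502 (1.19 to 1.62). These ratios show unequal differences within a library and say nothing of which gene moved.

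Levels per length were ordered by the deposited FPKM, whose implied lengths equal the union of GENCODE M21 exons. The median over 12 libraries was 221 FPKM for Ybx1, 41.4 for Ybx3, 24.0 for Cirbp, 10.97 for Csdc2, 9.64 for Rbm3 and 8.49 for Carhsp1. Each of the first 3 was above the next gene in 12 of 12 libraries. The lower end has no firm order, since Csdc2 exceeded Rbm3 in 6 of 12 libraries and Rbm3 exceeded Carhsp1 in 9 of 12. The exon union of Rbm3 is 4.698 kb, while its transcript with the longest coding sequence is 1.152 kb. Per kilobase of such a transcript, the median levels were 38.8 CPM for Rbm3, 46.6 for Cirbp and 20.1 for Csdc2, so the place of Rbm3 rests on the length used.

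Spread within a group differed widely between members. The within-group SD on the log2 scale was 0.0663 for Ybx1, 0.0723 for Cirbp, 0.0821 for Ybx3, 0.119 for Rbm3, 0.196 for Carhsp1 and 0.320 for Csdc2. Among the 1000 tested genes nearest in level, Csdc2 stood at the 98.3 percentile of this SD and Carhsp1 at the 89.9 percentile, while Ybx1 stood at 11.2 and Cirbp at 22.4. Csdc2 and Carhsp1 were thus the variable members, and Ybx1 and Cirbp the steady ones.

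Cirbp and Rbm3 were both lower in the HF-named group, yet no positive relation between them was seen from library to library within a group. Across the 6 con-named libraries Pearson's r of their log2 CPM was -0.36, and across the 6 HF-named libraries it was -0.35. As deviations from the group means over 12 libraries, r was -0.35 and Spearman's rho, from ranks within each group, was -0.17. Without the 2 of these 12 libraries farthest from the median of Cirbp, con-named replicate 5 and HF-named replicate 2, r was -0.16. Leaving out the 2 farthest libraries of each group separately gave 0.21 (con-named) and -0.91 (HF-named), from 4 libraries each. With library totals or the deposited FPKM, r was -0.24 and -0.25 for con-named and -0.04 and -0.06 for HF-named libraries. The values thus move with single libraries and with the scaling. Without con-named replicate 5, which had the lowest Cirbp and the highest Rbm3 of its group, r in the con-named group was 0.29, and without HF-named replicate 3 r in the HF-named group was 0.05. Of 12205 named genes, 78.5% had a higher r with Cirbp than Rbm3 had. The pair was named by the rule that chose the members, so no p is given.

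**Figure D3:**
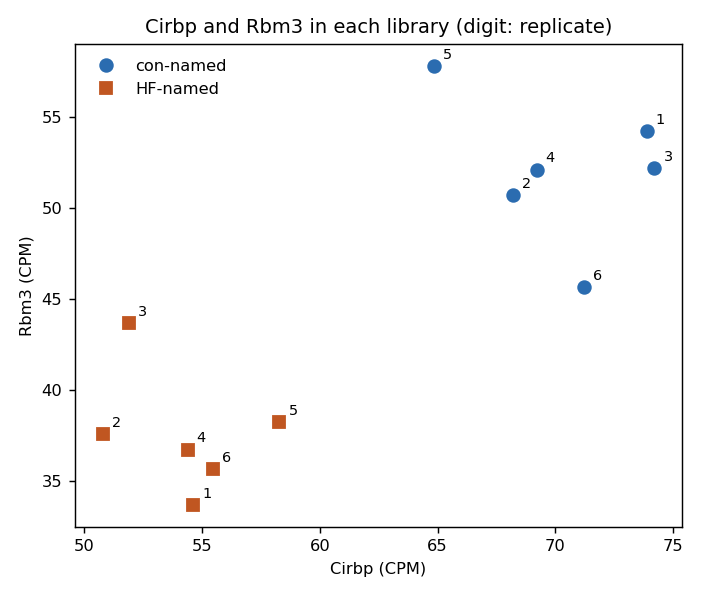
Cirbp (x axis) against Rbm3 (y axis), both in CPM, with 1 point per library and its replicate number. The 2 groups form separate clouds, and within each the points show no upward trend (r -0.36 and -0.35).

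The other 14 pairs of members were compared in the same way, with exact permutation of libraries within each group (518400 arrangements, two-sided) and Benjamini-Hochberg adjustment over the 14. By r, 1 pair passed, Carhsp1 with Csdc2, which moved in opposite directions at r = -0.80 (exact permutation p = 0.000725, adjusted p = 0.0102). In the separate groups r was -0.83 (con-named) and -0.85 (HF-named). Its rho was -0.86 (exact permutation, adjusted p = 0.0311), and r was -0.63 without the 2 libraries farthest from the median of Csdc2. The relation can be seen in single libraries. HF-named replicate 3 had the lowest Csdc2 and the highest Carhsp1 of its group, 37.9 and 27.4 CPM, and con-named replicate 2 did the same in its group, at 34.2 and 30.2 CPM. The adjusted p was 0.0562 without HF-named replicate 3 and 0.0574 without HF-named replicate 5 (exact permutation), so the call rests on those libraries. Both genes also varied with tissue markers, as given below.

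A further 3 pairs had an adjusted p of 0.0637 by r (exact permutation): Csdc2 with Ybx1 (r = 0.75), Carhsp1 with Cirbp (r = -0.70) and Ybx3 with Cirbp (r = 0.67). By rho, Csdc2 with Ybx1 (rho 0.80, adjusted p = 0.0437) and Carhsp1 with Ybx1 (rho -0.77, adjusted p = 0.0457) also passed the exact permutation test. The 2 Y-box genes Ybx1 and Ybx3, despite their similar sequence, had an r of 0.38 (exact permutation, adjusted p = 0.331). The number of pairs past 0.05 by r ran from 0 to 3 on leaving out single libraries, with 0 without HF-named replicate 3 or 5, 3 without HF-named replicate 4 and 2 without HF-named replicate 6.

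The genes most like each member, by r of deviations from the group means over 12 libraries among 12205 named genes whose mean reached 1 CPM, are listed as a description, and the 12 points share the scaling of their libraries. For Cirbp they were the ubiquitin ligase scaffold gene Cul2 (0.91), the endoplasmic reticulum chaperone gene Erp44 (0.90) and Zfp809 (0.89). For Rbm3 they were Fam107b (0.94), the palmitoyltransferase gene Zdhhc4 (0.89) and Esyt1 (0.86). Ybx1 was closest to Uhrf2 (0.93), the co-chaperone gene Bag1 (0.92) and Fastk (0.89), and Ybx3 to the tRNA methyltransferase gene Trmt10a (0.89), Cdkn2aipnl (0.84) and Nsf (0.84). Csdc2 was closest to Bckdhb (0.96), which encodes a branched-chain keto acid dehydrogenase subunit, Asph (0.96) and Idh3g (0.95), a subunit of the tricarboxylic acid cycle enzyme isocitrate dehydrogenase. Carhsp1 was closest to the protocadherin gene Pcdh1 (0.98), the endothelial receptor kinase gene Tie1 (0.96) and the fibronectin gene Fn1 (0.95).

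Tissue makeup was followed through marker lists, and each list is given by its calls and its summed level. Of 10 endothelial markers 3 were lower and 0 higher, with a summed level of 1337 to 1745 CPM (con-named) and 1053 to 1593 CPM (HF-named). Of 10 fibroblast markers 4 were lower (sums of 1471 to 1883 and 1196 to 1468 CPM), and of 10 macrophage markers 3 were lower (253 to 345 and 213 to 282 CPM). Of 10 cardiomyocyte markers 2 were higher and 5 lower, with sums of 63367 to 72037 and 66127 to 73585 CPM. The labelled ventricular tissue thus had its cardiomyocyte transcripts in every library, and no adipocyte marker passed the filter. Of 8 mural markers 0 were called by edgeR, although 3 had an unadjusted p under 0.05, limma-voom called 1 and DESeq2 called 2, and their summed levels did not overlap, at 1286 to 1462 CPM (con-named) and 1474 to 1674 CPM (HF-named). Of 5 erythroid markers 1 was higher. In the T and B cell (7 measured), neutrophil (4), atrial (3), Schwann and neuronal (6) and epicardial (1) lists 0 were called by edgeR, limma-voom or DESeq2. In these lists 1 T and B cell marker and 1 Schwann or neuronal marker had an unadjusted p under 0.05. Mitochondrial transcripts took 20.95 to 24.0% of counts (con-named) and 23.9 to 27.2% (HF-named), of totals that ran from 14443186 to 22048689. The part of these measures in the lower Cirbp and Rbm3 was not tested.

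Within the groups, Carhsp1 followed the endothelial markers. In a family of 72 relations of members with marker sums, mitochondrial share and total count, chosen after the data were seen, its r with the endothelial sum was 0.87 (rho 0.83; con-named 0.79, HF-named 0.90; exact permutation p = 0.000353, adjusted p = 0.0254). Without the 2 libraries farthest from the median, r was 0.80. Carhsp1 with the mitochondrial share had an r of -0.83 (exact permutation, adjusted p = 0.0484). Both calls are fragile: for rho the adjusted p was 0.223 in each, and by r the adjusted p reached 0.153 on leaving out 1 library (exact permutation). Leaving out con-named replicate 2 or any HF-named library ended both calls (7 of 12 fits), and con-named replicates 4 and 5 also ended the second (9 of 12), as did RLE scaling (exact permutation, adjusted p = 0.0576). Csdc2 had the opposite signs, with an r of -0.67 with the endothelial sum and 0.68 with the mitochondrial share (exact permutation, adjusted p = 0.132 in each). With the cardiomyocyte sum r was 0.75 for Csdc2 and -0.64 for Carhsp1 (exact permutation, adjusted p = 0.0962 and 0.138). Carhsp1 also had an r of 0.74 with both the T and B cell and the atrial sums (exact permutation, adjusted p = 0.0576 and 0.132). Ybx1 had an r of 0.81 with the cardiomyocyte sum and 0.78 with the mitochondrial share (exact permutation, adjusted p = 0.0576 and 0.0888). The part of tissue makeup in the relation of Carhsp1 with Csdc2 was not tested. No relation of Cirbp or Rbm3 passed. For Cirbp r was -0.61 with the endothelial sum (exact permutation, adjusted p = 0.201) and 0.76 with the mitochondrial share (adjusted p = 0.0888), and for Rbm3 it was 0.16 and -0.04. Cirbp also had an r of -0.74 with the T and B cell sum (exact permutation, adjusted p = 0.0962). The strongest values for Rbm3 were 0.67 with the erythroid sum and -0.61 with the mural sum (exact permutation, adjusted p = 0.152 and 0.215).

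**Figure D4:**
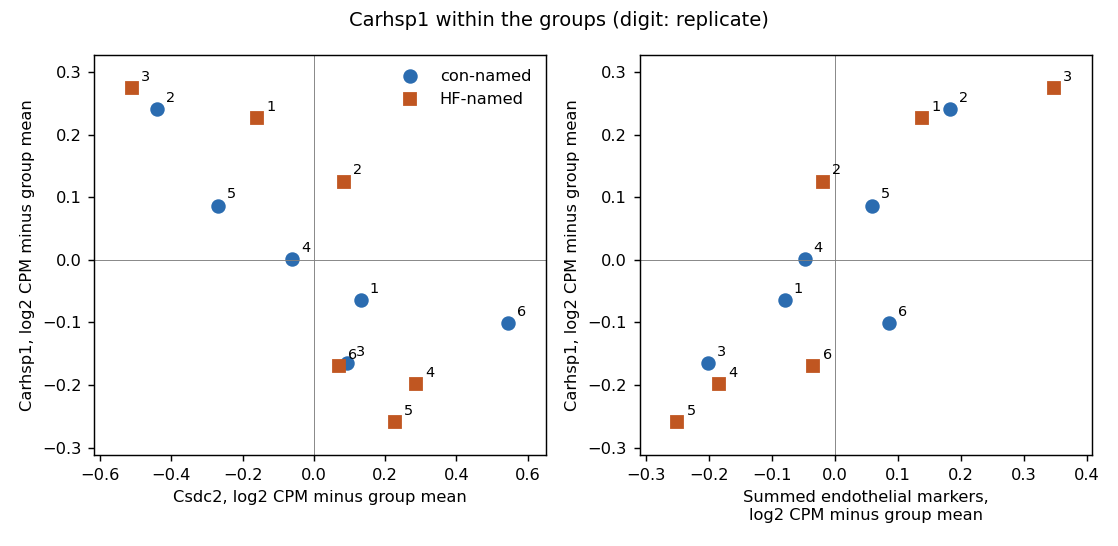
Carhsp1 (y axis) against Csdc2 (left) and summed endothelial markers (right), as log2 CPM minus the group mean, with 1 point per library and its replicate number. Carhsp1 falls as Csdc2 rises (r -0.80) and rises with the endothelial sum (r 0.87).

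Genes related to the members by family or function were counted in 7 lists. Each is given beside the 13.3% of all genes that were called and their median log2 fold change of -0.01. The lists were chosen with earlier results of these data known. Nothing is therefore read from a list's count or median against those values. The adjusted p-values of listed genes, here and below, are likewise descriptions and no independent test. Of the other cold-shock-domain genes, 5 of 7 were measured and 1 was called. The list's median was 0.01.

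Of 9 RNA recognition motif relatives and splicing factors with poison exons, 1 was called, and the median was 0.02. It was the temperature-sensitive kinase gene Clk4, whose product phosphorylates splicing factors, which rose from 57.2 ± 5.45 to 65.2 ± 1.49 CPM (edgeR adjusted p = 0.0399, log2 fold change 0.19 with SE 0.0573). Its call was lost without any 1 library other than con-named replicate 5 or HF-named replicate 3. It was also lost without a count filter (edgeR adjusted p = 0.0761) and with library totals, where the log2 fold change was 0.07 (edgeR adjusted p = 0.456). Of the 7 alternative polyadenylation factors, 0 were called by edgeR, limma-voom or DESeq2 and 0 had an unadjusted p under 0.05, with a median of -0.01. The most abundant was Cpsf7, a subunit of cleavage factor I, at 49.0 ± 2.75 and 46.4 ± 2.84 CPM (edgeR adjusted p = 0.336, log2 fold change -0.08 with SE 0.0524). With library totals its log2 fold change was -0.20 and it was called (edgeR adjusted p = 0.0382).

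Among 10 measured partners of YBX1 in messenger ribonucleoprotein particles, 3 were higher and 0 lower, with a median of 0.10. Caprin1, a stress granule protein gene, rose from 119 ± 3.51 to 136 ± 6.89 CPM (edgeR adjusted p = 0.0100, log2 fold change 0.20 with SE 0.0443). The RNA helicase gene Dhx9 rose from 53.2 ± 2.51 to 60.5 ± 1.78 CPM (edgeR adjusted p = 0.0124, log2 fold change 0.18 with SE 0.0436). For both, all 6 HF-named libraries were above every con-named one, and the share of all genes so placed is not given here. Syncrip, which encodes an hnRNP, rose by 0.17 (SE 0.0512, edgeR adjusted p = 0.0333), and leaving out any of con-named replicates 2, 4, 5 and 6 or HF-named replicates 1, 2, 4 and 5, or dropping the count filter, ended its call (edgeR adjusted p = 0.0868 without the filter). With library totals the log2 fold changes were 0.08 for Caprin1, 0.07 for Dhx9 and 0.06 for Syncrip, and 0 of the 10 were called, so these rises depend on the composition scaling.

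The list of reported targets and effectors had 11 of 12 genes measured, 1 higher and 1 lower, with a median of 0.06. Kcnd3, a transient outward potassium channel gene whose translation CIRBP is reported to affect, rose from 17.5 ± 1.601 to 23.5 ± 1.99 CPM (edgeR adjusted p = 0.00182, log2 fold change 0.43 with SE 0.0716). All 6 HF-named libraries were above the con-named range, and the share of all genes so placed is not given here. Kcnd3 was called in every fit run. Its RNA level was measured, and its translation was not. Kcnd2 and the histone gene H1f0, of the same list, were not called (log2 fold changes 0.21 and 0.03, edgeR adjusted p = 0.316 and 0.821). H3f3b, a histone H3.3 gene of the kind CSDC2 binds, fell by 0.16 on the log2 scale, from 125 ± 6.21 to 111 ± 5.43 CPM (SE 0.0475, edgeR adjusted p = 0.0325). Leaving out any of con-named replicates 1, 2, 5 and 6 or HF-named replicates 1, 2, 4 and 5, or dropping the count filter (edgeR adjusted p = 0.0768), ended that call, while library totals gave -0.28 (edgeR adjusted p = 0.00528).

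Heat-induced chaperones, as listed here, had 6 of 12 members higher and 0 lower, with a median of 0.24. Hspd1, the mitochondrial chaperonin gene, rose from 385 ± 33.3 to 478 ± 19.6 CPM (edgeR adjusted p = 0.00369, log2 fold change 0.31 with SE 0.0588). Hsp90aa1, the inducible cytosolic form, rose from 114 ± 6.69 to 138 ± 9.34 CPM (edgeR adjusted p = 0.00453, log2 fold change 0.28 with SE 0.0541). Hspb1, a small heat-shock protein gene, rose from 99.0 ± 9.18 to 125 ± 12.0 CPM (edgeR adjusted p = 0.00684, log2 fold change 0.34 with SE 0.0713). Hsp90aa1 alone of these 3 lost its call with library totals (log2 fold change 0.16, edgeR adjusted p = 0.0704), where Hspd1 was at 0.20 and Hspb1 at 0.22. Bag3, also called higher, lost its call in 8 of 12 fits with 1 library left out, and with library totals (log2 fold change 0.08, edgeR adjusted p = 0.261). The genes not called by edgeR were Hspa1a, Hspa8 and Hsp90ab1 (log2 fold changes 0.63, 0.21 and 0.18) and Hspa1b, Hspe1 and Dnajb1 (-0.06, -0.09 and -0.14). Hspa1a and Hspa1b were low, with con-named and HF-named means of 1.22 and 1.90 CPM and of 1.69 and 1.65 CPM. No body or tissue temperature is given in the labels, so these values sit beside the lower Cirbp and Rbm3 as measurements only.

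Of 16 core clock and output genes, 1 was higher and 2 were lower, with a median of -0.01. The repressor gene Nr1d2 rose from 168 ± 12.5 to 201 ± 13.3 CPM (edgeR adjusted p = 0.00905, log2 fold change 0.26 with SE 0.0578), a call lost with library totals (log2 fold change 0.14, edgeR adjusted p = 0.0556). Ciart, a clock repressor gene, fell from 31.9 ± 5.10 to 23.1 ± 6.04 CPM (edgeR adjusted p = 0.0461, log2 fold change -0.47 with SE 0.148), and Cry2 fell by 0.18 (SE 0.0563, edgeR adjusted p = 0.0483). Leaving out any of con-named replicates 1, 3, 4 and 5 or HF-named replicates 1, 2 and 6 ended the Ciart call. The Cry2 call ended on leaving out any library other than con-named or HF-named replicate 6. It also ended with RLE (edgeR adjusted p = 0.0509), with limma-voom (adjusted p = 0.0521) and without a count filter (edgeR adjusted p = 0.0796), while library totals gave -0.29 (edgeR adjusted p = 0.00473). The hour at which tissue was taken is not given in the labels.

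**Figure D5:**
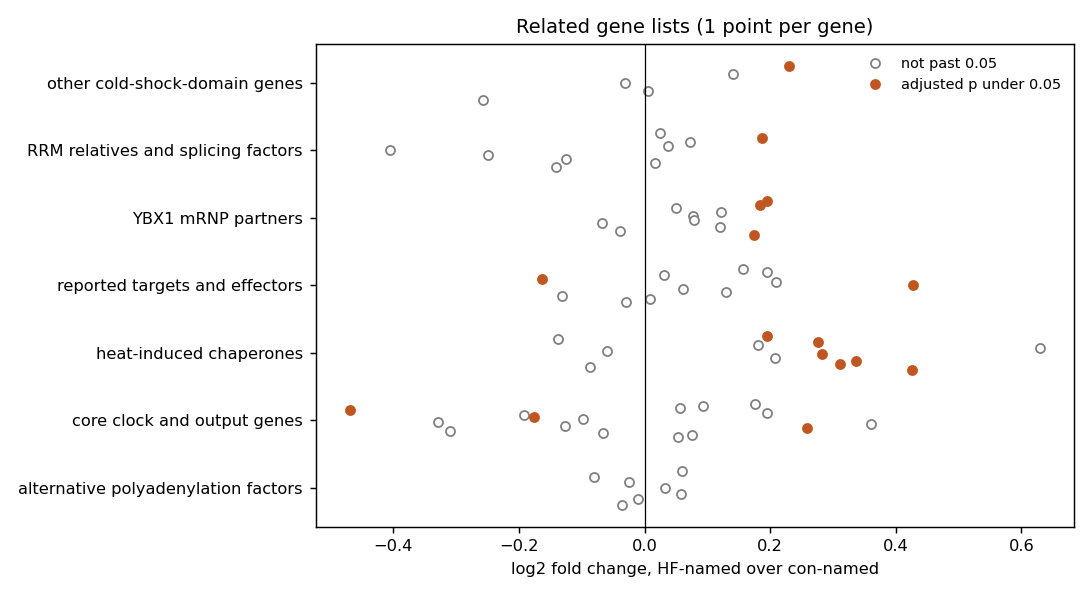
Log2 fold change (x axis, HF-named over con-named) of each measured gene in 7 related lists (rows), filled where the edgeR adjusted p is under 0.05. The chaperone row holds 6 filled points, all above 0, and the polyadenylation row holds 0.

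Promoters are shown for Cirbp and Ybx3 because a mild-cold element, TCCCCGCC, is known from the Cirbp promoter. The stretch below, from the RefSeq table on GRCm38.p6, is at chr10:80167589-80167777 on the plus strand. It lies within the span of the GENCODE gene, whose outermost exon is further upstream, and ends at the base before another Cirbp exon, with TCCCCGCC and CCAAT on either strand in capitals.
Cirbp: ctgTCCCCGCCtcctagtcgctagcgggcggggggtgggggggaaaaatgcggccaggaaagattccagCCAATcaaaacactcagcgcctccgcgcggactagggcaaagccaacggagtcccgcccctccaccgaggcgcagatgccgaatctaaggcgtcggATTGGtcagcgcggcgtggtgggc
The Ybx3 stretch, at chr6:131388477-131388700 on the minus strand, holds the same element close to the start site.
Ybx3: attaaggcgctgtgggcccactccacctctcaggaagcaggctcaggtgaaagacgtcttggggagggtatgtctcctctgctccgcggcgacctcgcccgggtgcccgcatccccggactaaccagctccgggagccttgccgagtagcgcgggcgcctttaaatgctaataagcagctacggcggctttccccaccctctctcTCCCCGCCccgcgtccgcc
The element starts at -247 from the RefSeq start site in Cirbp and at -45 in Ybx3, and Carhsp1 holds it on the opposite strand at -214. The search covered the 250 bases before each start site, and a second RefSeq window of Cirbp and that of Ybx1 hold no match. Of 32851 promoter windows of the same length, 4.64% hold TCCCCGCC on either strand. The windows with the element are 65.6% (Cirbp), 67.2% (Ybx3) and 73.2% (Carhsp1) G or C. Those without it are 72.4% (second Cirbp) and 62.8% (Ybx1), and windows of like content were not compared. GGGCGG occurs in 32.7% of all windows and 2 to 4 times in each member window, overlapping the element in Ybx3. CCAAT occurs in 33.8% of windows, with 2 matches in the first Cirbp window, 3 in Ybx1, 1 in Carhsp1 and 0 in Ybx3. The letters CTGATTGG (3.83% of windows), CACGTG (6.02%) and GAANNTTC (6.69%) matched none of the 4 members searched. A match is only a run of letters, and members with TCCCCGCC ranged in log2 fold change from -0.37 (Cirbp) to -0.14 (Ybx3).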

How the data were processed

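The authors deposited raw read counts per gene and library, with FPKM for the same libraries. The tools named per the submitters' processing notes are HISAT2 2.0.5, HTSeq 0.9.1 and cutadapt 1.15, and the build is mm10. The sources used here give neither annotation release nor strand setting. The authors' deposited table of their comparison holds group means of scaled counts (a signal), log2 fold changes and p-values. Columns were matched to samples by library name, and 0 other per-sample columns were left out.

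Counts were filtered with filterByExpr, scaled by TMM and fitted with edgeR 4.0.16 (limma 3.58.1, R 4.3.3; quasi-likelihood, group only, two-sided), adjusting over 15114 genes at 0.05. Log2 CPM used a prior count of 2. The smallest total, 14443186 counts, and the largest, 22048689, bound the depth, and 3 counts equal 0.142 to 0.217 CPM. No pair of libraries within a group was the same within sampling noise (chi-square per degree of freedom 4.28 to 16.2). Correlations used Python 3.11.15. The scripts were tested on simulated data.

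The members and lists were chosen with earlier results of these data known. Named genes were the members, 3 most like genes each (mean of at least 1 CPM, no unnamed models or pseudogenes), and up to 3 called genes of smallest p per list, or else the most abundant. Further genes of the chaperone and target lists were named to show limits. Marker genes were given by list. Among the genes the rule names, 1 is not reported here. Sequences are from GENCODE M21 and RefSeq (GRCm38.p6). Promoters of Rbm3 and Csdc2 were not used here. Alternatives were RLE, library totals, no filter, 1 CPM in 6 libraries, limma-voom, DESeq2 1.42.0, a replicate block, and each library left out.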

Additional observations from a re-analysis of the deposited data

How the results depend on the processing

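Cirbp and Rbm3, which were chosen from this contrast, so that their calls are no independent support, were called lower in every fit run, with log2 fold changes of -0.49 to -0.37 and -0.59 to -0.47 over the other settings, and -0.41 to -0.35 and -0.52 to -0.44 with each library left out. With library totals, Ybx1 (-0.18) and Ybx3 (-0.26) were also called, among 3065 of 15114 genes in all, 2582 of them lower. In the lists 2 cold-shock-domain genes, 4 RNA recognition motif relatives, 0 YBX1 partners and 1 polyadenylation factor were then called. Ybx3 was also called with 1 CPM in 6 libraries (-0.15), with DESeq2 (-0.14), and without con-named or HF-named replicate 5. Without a count filter, 0 cold-shock-domain genes, 0 motif relatives and 1 target were called. The replicate block left 1131 genes (748 higher, 383 lower), with 0 motif relatives, 1 YBX1 partner and 1 target, and changed the call of no member. Clk4, Dhx9, Syncrip, H3f3b, Cry2 and Bag3 were then not called (edgeR adjusted p = 0.0718, 0.0538, 0.0805, 0.0894, 0.108 and 0.0988). The numbers do not pair the libraries: same-numbered deviations correlated at -0.16 to 0.09, and 3 of 12 libraries correlated best with their own number. Without the 2 libraries of each group farthest in Cirbp, r of Cirbp with Rbm3 was 0.21 (con-named) and -0.91 (HF-named). With each library left out, r ran from -0.58 to 0.29 and from -0.63 to 0.052, and r of Carhsp1 with Csdc2 from -0.87 to -0.73, with 0 to 3 pairs called. Genes called ran from 1355 to 2550, and calls from 1 to 2 among cold-shock-domain genes, 0 to 1 among motif relatives, 2 to 3 among YBX1 partners, 1 to 3 among targets, 5 to 9 among chaperones and 1 to 4 among clock genes. Ybx3 ran from -0.18 to -0.12. The cause of these shifts was not tested. All of them are differences of under 1 on the log2 scale, and 6 libraries per group limit their precision.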
